A study of Mus with 2 samples.

Results

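Genomic imprinting leaves a gene expressed from 1 parental allele, and several imprinted genes act on growth, insulin-like growth factor (IGF) signalling and the cell cycle. In hematopoietic stem cells (HSCs) the Dlk1-Meg3 region and the cell cycle inhibitor Cdkn1c are known for their link to dormancy. The imprinted genes described here were Meg3, Rian and Mirg, which are long noncoding RNAs made from the maternal copy of that region; H19, a maternally expressed noncoding RNA beside Igf2; Igf2r, the receptor that clears IGF2; Grb10, an adaptor that dampens insulin and IGF1 receptor signalling; Ndn, whose paternally expressed product necdin restrains growth; Plagl1, a paternally expressed zinc finger transcription factor; and Impact, a paternally expressed inhibitor of the kinase GCN2. The 9 genes were chosen by their measured values in these libraries, so the library differences of the genes are given as a description. UMI counts do not separate the parental alleles.

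Single-cell RNA-Seq was performed on LSK FLT3- CD150+ CD48- HSCs sorted from mouse tibias and fibulas, with 1 library from Mx1-Cre; Id2+/+ mice and 1 from Mx1-Cre; Id2Δ/Δ mice. Each library was 1000 cells sorted from 5 pooled mice aged 8 to 12 weeks, captured 2 weeks after poly(I:C) (pIpC). Mx1-Cre is switched on by interferon in many cell types, not in stem cells alone, and both genotypes carried it. In the labels, 1 clause on the Id2Δ/Δ sample names Id2+/+ bones as its source, whereas its title and genotype state the deletion. Id2 had 22 UMIs in the retained Id2+/+ cells and 0 in the Id2Δ/Δ cells. With 1 library per genotype there was no replicate, so no test was run between genotypes, and every interval below is a 95% interval that covers counting error only.

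Of the 9 genes, 8 had a row among the 27998 genes counted, and Rian is not analysed here. After neutrophil-like and erythroid-like clusters were removed, 262 Id2+/+ and 416 Id2Δ/Δ stem cells remained, holding 2133449 and 4685729 UMIs with medians of 7081 and 9663 UMIs per cell. Among other cell types, erythroid markers summed to 2966 CPM in the retained Id2+/+ and 2526 CPM in the retained Id2Δ/Δ cells, and neutrophil markers to 1075 and 639 CPM, with 0 of 10 markers of each list at 0 UMIs. Lymphoid markers summed to 213 and 169 CPM with Cd3e at 0, macrophage markers to 316 and 387 CPM with Adgre1 at 0, and stromal and endothelial markers to 98.0 and 51.4 CPM with Cdh5 at 0. Basophil and mast cell markers summed to 242 and 183 CPM, with 0 of 6 markers at 0 UMIs. The part of these lists in the differences described below was not tested. Between the libraries, 1 called barcode was shared and 0 among the retained cells. Barcodes with 1 to 100 UMIs, taken as empty droplets, held 46.3% of the Id2+/+ and 22.4% of the Id2Δ/Δ UMIs, and free RNA estimated from haemoglobin genes was 10.5% and 5.41% of the UMIs of the retained cells. The 12 HSC markers summed to 2222 CPM in the retained Id2+/+ and 1837 CPM in the retained Id2Δ/Δ cells. All 12 passed 20 UMIs over the retained cells of both libraries. As 10 of 10 erythroid and 9 of 10 neutrophil markers passed it too, this bar does not check the sort. Shares of cells with a UMI are compared after each cell was thinned to 5800 UMIs. Thinning left out 66 Id2+/+ cells and 0 Id2Δ/Δ cells that were shallower.

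Meg3 showed the largest library difference of the 8 genes. The gene lies on chromosome 12 at 109540996 to 109571729 (mm10, RefSeq for GRCm38.p6). It had 96 UMIs in Id2+/+ stem cells, or 45.0 CPM (UMIs scaled to a library total of 1000000) with an interval of 36.4 to 54.9, and 15 UMIs in Id2Δ/Δ stem cells, or 3.20 CPM (1.79 to 5.28). The Id2Δ/Δ over Id2+/+ ratio was 0.0711 (0.0383 to 0.123). A Meg3 UMI was found in 29 of 262 Id2+/+ cells (11.1%) and in 7 of 416 Id2Δ/Δ cells (1.68%). At matched depth the shares were 7.65% (4.35 to 12.3) and 1.44% (0.531 to 3.11), against 0 of 42 and 0 of 169 thinned erythroid-like cells, whose medians before thinning were 33770 and 38755 UMIs. Cells with a UMI were therefore fewer in the Id2Δ/Δ library. Its 7 cells held a median of 1 Meg3 UMI, against 3 in the 29 Id2+/+ cells, as given next, a difference that rests on few cells.

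Meg3 was concentrated in a few Id2+/+ cells rather than spread thinly. Of the 29 Id2+/+ cells with Meg3, 8 held 1 UMI, 13 held 2 to 4 and 8 held 5 to 8, and no cell gave more than 8.33% of the library's Meg3 UMIs. The Id2Δ/Δ cells with Meg3 held 1 UMI in 4 cells and 2, 4 and 5 UMIs in the other three. The Meg3 level within these cells, which were picked by having a Meg3 UMI, was 501 CPM in the Id2+/+ and 247 CPM in the Id2Δ/Δ library, given without intervals. The cells were not deeper than the rest, with medians of 6019 against 7269 UMIs in Id2+/+ and 7571 against 9726 UMIs in Id2Δ/Δ. Empty droplets carried Meg3 at 11.5 CPM in the Id2+/+ and 1.04 CPM in the Id2Δ/Δ library, and the ratio with the empty-droplet profile subtracted was 0.0680.

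**Figure D1:**
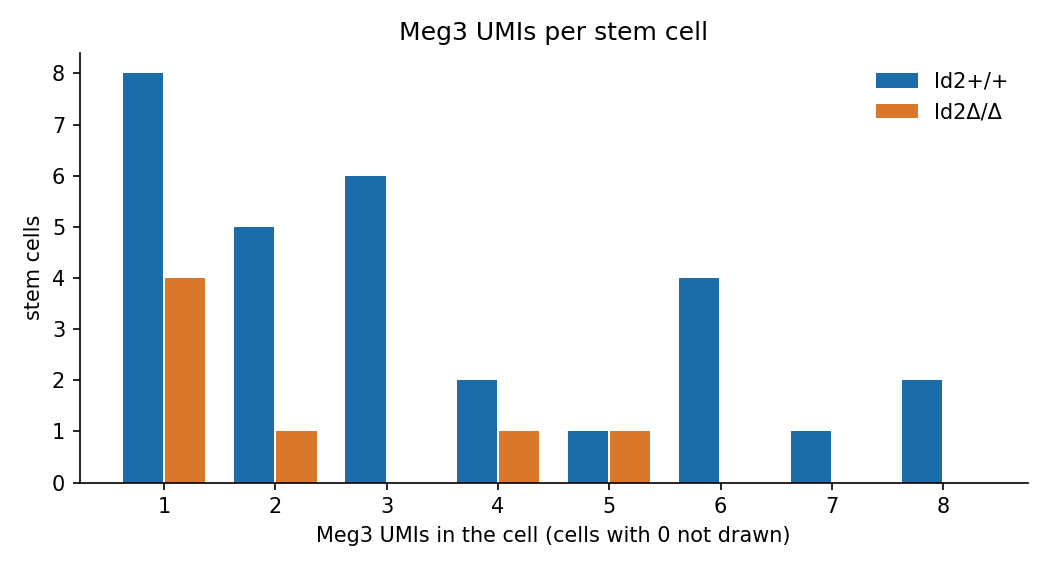
Number of retained stem cells (y axis) with each count of Meg3 UMIs (x axis), for the Id2+/+ (blue) and Id2Δ/Δ (orange) library, with cells at 0 not drawn. Of 29 Id2+/+ cells 21 hold at least 2 UMIs and 8 hold at least 5, against 3 and 1 of 7 Id2Δ/Δ cells.

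Mirg, which is transcribed from the same region at 109734981 to 109749458, had 0 UMIs in the stem cells of both libraries. A count of 0 allows up to 1.41 CPM in Id2+/+ and 0.640 CPM in Id2Δ/Δ, or 1.15% and 0.721% of cells with a UMI. Dlk1, the paternally expressed gene of the region, had 3 and 4 UMIs. H19 (chromosome 7, 142575530 to 142578146) had 1 UMI in each library, both in HSC-like cells, and its neighbour Igf2 had 0. Plagl1 (chromosome 10) had 0 UMIs in stem cells of either library. At this depth, Meg3 was thus the only noncoding RNA of the 8 genes with more than 1 UMI in a library's stem cells.

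Ndn and Impact were lower in the Id2Δ/Δ library sum, and Grb10 differed least. Ndn (chromosome 7, 62348277 to 62349928) had 110 UMIs, 51.6 CPM (42.4 to 62.1), in Id2+/+ cells and 157 UMIs, 33.5 CPM (28.5 to 39.2), in Id2Δ/Δ cells, a ratio of 0.650 (0.506 to 0.837), which is past 1.5 fold, but not with TMM scaling (0.700), with either other way of calling cells (0.713 and 0.690) or in cells with Y-linked UMIs and no Xist (0.728). Impact (chromosome 18) had 70 UMIs, 32.8 CPM (25.6 to 41.5), and 66 UMIs, 14.1 CPM (10.9 to 17.9), a ratio of 0.429 (0.302 to 0.610). Grb10 (chromosome 11, 11930499 to 12037428) had 84 UMIs, 39.4 CPM (31.4 to 48.7), and 154 UMIs, 32.9 CPM (27.9 to 38.5), and its ratio of 0.835 had an interval of 0.636 to 1.10 that holds 1. The intervals of the 2 libraries did not overlap for Meg3, Ndn and Impact, and did for Grb10. How often intervals failed to overlap among all genes in the retained stem cells was not computed. As these genes were also chosen by their values in these libraries, nothing is read from the lack of overlap.

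Igf2r (chromosome 17, 12682406 to 12769706) had 10 UMIs in each library, 4.69 and 2.13 CPM, with a ratio of 0.455 (0.170 to 1.22). Its level in stem cells was below that in erythroid-like cells, 10.0 CPM in Id2+/+ and 6.38 CPM in Id2Δ/Δ, and below that in empty droplets, 6.02 and 4.42 CPM. The stem cell interval of 2.25 to 8.62 CPM in Id2+/+ holds the empty-droplet level and overlaps the erythroid-like interval, while that of 1.02 to 3.92 CPM in Id2Δ/Δ lies below both. Its UMIs in stem cells are therefore not read as a difference between genotypes. Airn, the antisense RNA of this locus, had its own row with 6 and 10 UMIs. Whether the counting used strand is not given in the sources used here, so the split of UMIs between Igf2r and Airn is uncertain.

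Shares at matched depth gave the same order as the levels for Ndn and Impact, and no order is read for Grb10, whose share went against its level. Ndn was found in 25% (19.1 to 31.7) of thinned Id2+/+ cells and 18.8% (15.1 to 22.8) of Id2Δ/Δ cells, against 2.38% and 0.592% of thinned erythroid-like cells. Impact was found in 13.3% (8.85 to 18.8) and 8.41% (5.93 to 11.5), against 2.38% and 4.73% of erythroid-like cells. Grb10 was found in 18.4% (13.2 to 24.5) and 19.95% (16.2 to 24.1), against 4.76% and 4.14%. For these 3 genes the intervals of the shares overlapped between genotypes.

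**Figure D2:**
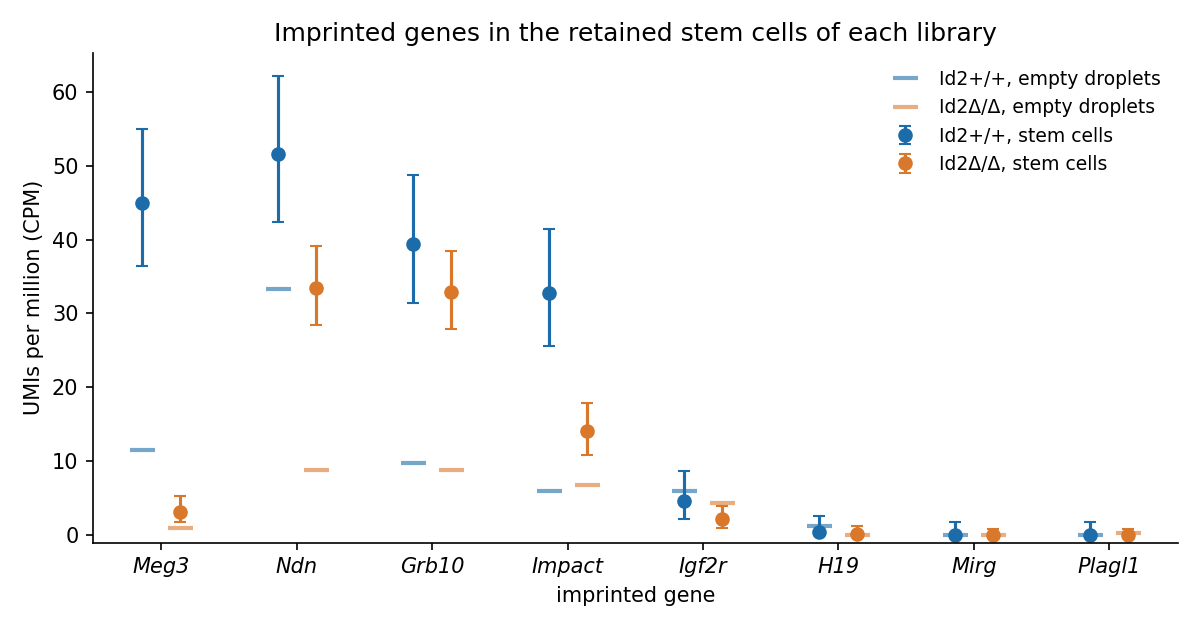
Level of 8 imprinted genes in CPM (y axis) over the retained stem cells of each library, with 95% Poisson intervals (points and bars), and the level in that library's empty droplets (dashes). Meg3 is at 45.0 in Id2+/+ and 3.20 in Id2Δ/Δ, Grb10 has overlapping intervals, the Igf2r interval holds the empty-droplet level in Id2+/+ and lies below it in Id2Δ/Δ, and Mirg and Plagl1 are at 0.

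Over all 10458 genes with at least 20 UMIs, 13.5% were lower by 1.5 fold in the Id2Δ/Δ library and 3.3% were higher. Scaled by TMM, which raised the median log2 ratio of all genes by 0.11, 64.9% rather than 80.4% of the genes past 1.5 fold were lower. Of the 5 imprinted genes with at least 20 UMIs, 4 were lower by 1.5 fold (Meg3, Impact, Igf2r and Ndn) and 0 were higher. Their median log2 ratio was -1.14, against -0.08 over all genes tested. The count was 3 with TMM scaling, with either other way of calling cells, with empty droplets subtracted, or in the cells with Xist or Y-linked UMIs alone. Igf2r fell below 20 UMIs with empty droplets subtracted and in these 2 sets of cells. In the cells with Y-linked UMIs alone, the 3 genes held Grb10 (0.656) and not Ndn (0.728). As the genes were selected on these libraries, nothing is read from these counts. Among 64 other imprinted genes listed, 61 had a row and 23 passed 20 UMIs. Of these 23, 3 were lower by 1.5 fold and 0 were higher, with a median log2 ratio of -0.22, so their share lay near the 13.5% of all genes.

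The 3 lower genes were Zrsr1, a paternally expressed splicing factor gene, with a ratio of 0.273 (0.122 to 0.587), Peg12 with 0.512 (0.247 to 1.07) and Slc22a18 with 0.550 (0.309 to 0.987). Trappc9 followed at 0.683 (0.493 to 0.952), then Mkrn3 at 0.708 (0.286 to 1.86) and Ppp1r9a at 0.731 (0.526 to 1.02). Tssc4 had the highest ratio, 1.28 (1.03 to 1.58), before Commd1 at 1.17 (0.998 to 1.37), Slc22a3 at 1.10, Gatm at 1.10, Nap1l4 at 1.04 and H13 at 1.04. Gnas, which encodes the stimulatory G protein alpha subunit, was at 791 and 816 CPM, a ratio of 1.03 (0.974 to 1.09). Cdkn1c, which encodes the cell cycle inhibitor p57, was at 46.9 and 36.1 CPM, a ratio of 0.769 (0.597 to 0.995). Peg3 and Mest had 0 UMIs in the stem cells. Among the 28 imprinted genes with at least 20 UMIs, Meg3 had the lowest ratio, with Zrsr1, at 20 and 12 UMIs, the nearest. As Meg3 was chosen by its values in these libraries, its rank is given as a description only.

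**Figure D3:**
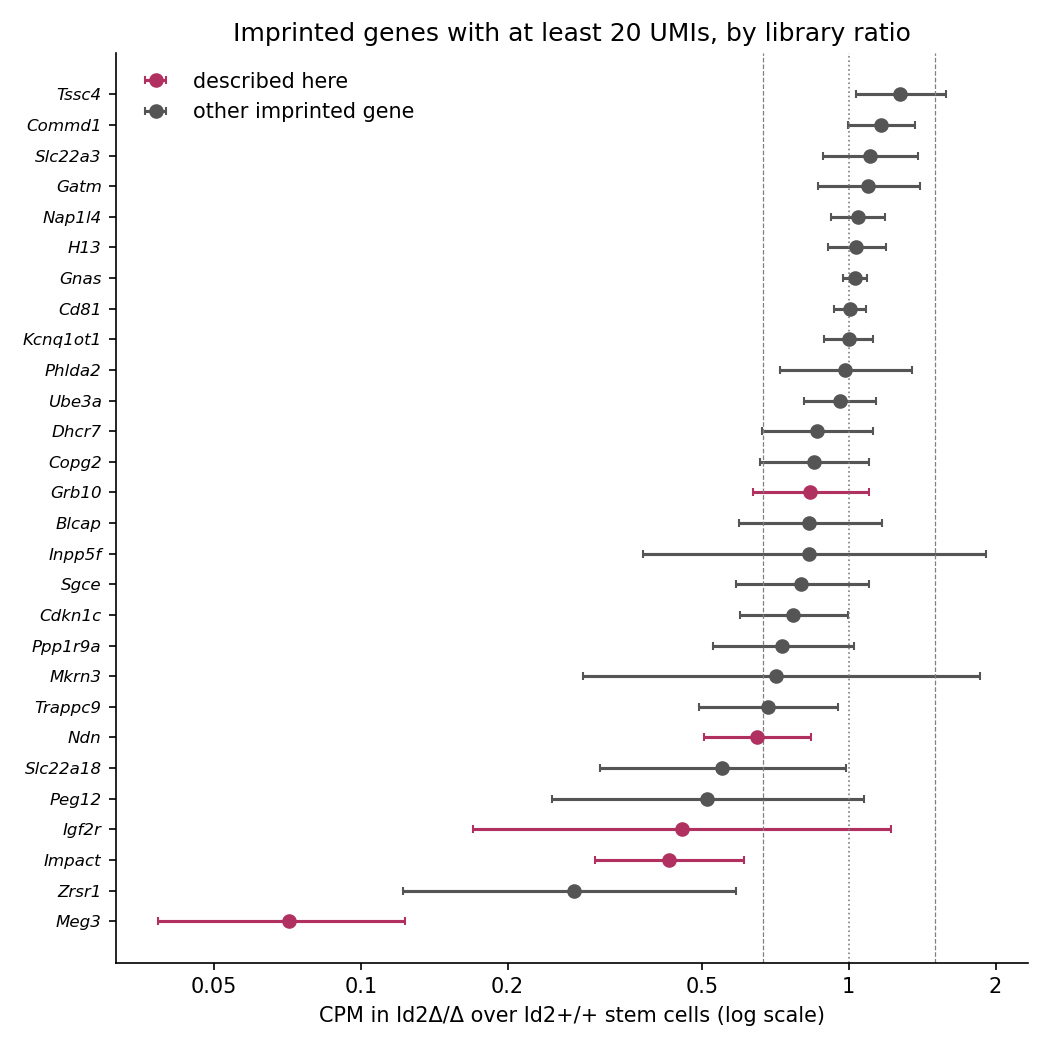
Ratio of CPM in Id2Δ/Δ over Id2+/+ stem cells (log x axis) with exact conditional 95% intervals for the 28 imprinted genes with at least 20 UMIs, 5 described here (red) and 23 others (grey); dashed lines mark 1.5 fold. Meg3 is lowest at 0.0711 with an interval that does not reach that of any gene but Zrsr1, and Tssc4 is highest at 1.28. The 5 genes in red were chosen by their values in these libraries.

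Genes that keep imprints and genes of IGF signalling, the pathway that several imprinted genes feed, were measured beside them. Of 14 imprint maintenance genes with at least 20 UMIs, 1 was lower (Tet2, 0.525, interval 0.233 to 1.2) and 0 higher, with a median log2 ratio of 0.14. Dnmt1, the maintenance DNA methyltransferase, was at 67.0 CPM in Id2+/+ and 90.7 CPM in Id2Δ/Δ, a ratio of 1.35 (1.12 to 1.65), and Tet1 was at 1.45 (0.879 to 2.50). Of 20 IGF signalling genes, 5 were lower and 0 higher, with a median log2 ratio of -0.33, against 13.5% lower, 3.3% higher and a median of -0.08 over all genes tested. The lowest were Insr, the insulin receptor, at 0.443 (0.274 to 0.716) and Igf2bp2, an mRNA-binding protein, at 0.506 (0.331 to 0.774). The highest were Igf2bp3 at 1.24 (0.876 to 1.77) and Mtor at 1.17 (0.696 to 2.04).

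Meg3 was then followed through the kinds of stem cell, which were clustered with all imprinted genes left out. HSC-like clusters were named from markers such as Hlf, Mecom and Procr, and platelet-biased HSC-like clusters from markers such as Pf4 and Itga2b. The clusters followed the libraries: HSC-like cells were 167 Id2+/+ cells of one cluster, led by the stress genes Fos and Dusp1 beside Meg3, and 6 Id2+/+ and 50 Id2Δ/Δ cells of another, led by Cd74 and Sult1a1. HSC-like cells were 66.0% of the Id2+/+ and 12.02% of the Id2Δ/Δ stem cells, and 3 clusters with 12 Id2+/+ and 279 Id2Δ/Δ cells stayed unnamed. At a coarser resolution of 0.5 the HSC-like shares were 69.1% and 46.9%. Among the unnamed clusters, that with 1 Id2+/+ and 84 Id2Δ/Δ cells had the lymphoid markers Vpreb1 and Dntt among its leading genes, beside Ung, Hells and Mcm5. Its cells were kept in the stem cell sums.

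Of the Id2+/+ Meg3 UMIs, 94.8% (91 of 96) lay in HSC-like cells, as did 86.7% (13 of 15) of the Id2Δ/Δ ones. In HSC-like cells Meg3 was at 79.9 CPM (64.3 to 98.1) in Id2+/+ and 33.8 CPM (18.0 to 57.8) in Id2Δ/Δ, found in 26 of 173 and 5 of 50 cells. The cluster that held HSC-like cells of both libraries had Meg3 at 347 CPM (179 to 606) in its 6 Id2+/+ cells, of which 3 held it, against the 33.8 CPM of its 50 Id2Δ/Δ cells. Platelet-biased HSC-like cells held Meg3 at 5.73 CPM (1.86 to 13.4) in Id2+/+ and 0 UMIs in 87 Id2Δ/Δ cells. The unnamed clusters held 0 UMIs in Id2+/+ and 2 UMIs, 0.718 CPM, in Id2Δ/Δ. Outside the stem cells, 1 Meg3 UMI lay in 44 Id2+/+ erythroid-like cells and 2 in 27 Id2+/+ neutrophil-like cells, and 0 in the 169 and 40 Id2Δ/Δ cells of these kinds.

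Ndn, Grb10 and Impact were also measured in each kind. In HSC-like cells Ndn was at 76.4 CPM (61.2 to 94.2) in Id2+/+ and 83.2 CPM (56.9 to 117) in Id2Δ/Δ. It was lower in platelet-biased HSC-like cells, 22.9 CPM (14.0 to 35.4) and 31.0 CPM (22.8 to 41.3), and in the unnamed Id2Δ/Δ clusters, 27.99 CPM (22.1 to 34.9). The library sums of Ndn thus differed, whereas its levels within HSC-like cells had overlapping intervals, with a ratio of 1.09 (0.703 to 1.65). The HSC-like cells of the libraries were not alike, however, with an Id2Δ/Δ over Id2+/+ ratio of 1.44 (1.36 to 1.53) for the summed HSC markers, 2.18 (1.64 to 2.90) for Procr, 1.78 (1.41 to 2.24) for Mllt3 and 0.745 (0.679 to 0.817) for S phase genes. Impact was at 41.3 CPM (30.3 to 54.9) and 41.6 CPM (23.8 to 67.5) in HSC-like cells, a ratio of 1.01 (0.534 to 1.81), but at 24.1 CPM (14.9 to 36.8) and 6.60 CPM (3.17 to 12.1) in platelet-biased HSC-like cells, where the intervals did not overlap. The share of all genes without overlap in platelet-biased HSC-like cells was not computed, so nothing is read from this. Grb10 ranged from 25.1 to 44.8 CPM over the 3 kinds of both libraries, with intervals that all overlapped. In erythroid-like cells Ndn was at 6.43 and 0.934 CPM, Grb10 at 10.0 and 4.98 CPM and Impact at 8.57 and 4.98 CPM, and in 27 Id2+/+ and 40 Id2Δ/Δ neutrophil-like cells Grb10 had 0 UMIs.

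**Figure D4:**
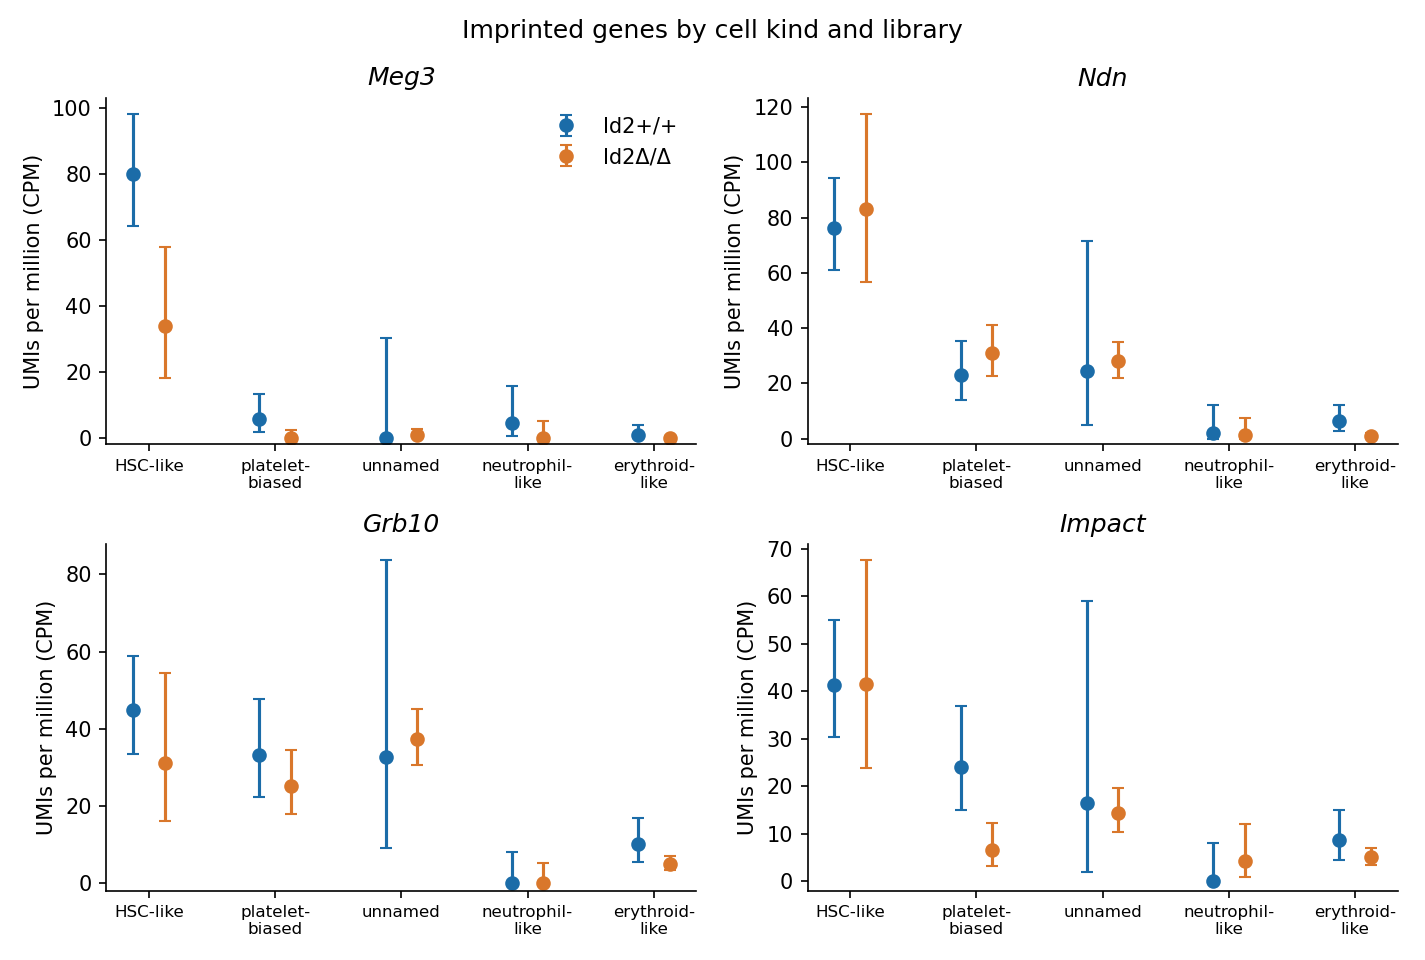
Level in CPM (y axis, 1 scale per gene) of Meg3, Ndn, Grb10 and Impact by cell kind (x axis) in Id2+/+ (blue) and Id2Δ/Δ (orange), with 95% Poisson intervals. Meg3 stands at 79.9 and 33.8 in HSC-like cells and at 5.73 or less elsewhere, Ndn is near 80 in HSC-like cells of both libraries (76.4 and 83.2), and Grb10 has overlapping intervals over the stem cell kinds.

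Because the classes followed the libraries, the cells were clustered again with each gene scaled within its library, which gave 56 Id2+/+ and 58 Id2Δ/Δ HSC-like cells in 1 cluster. Meg3, left out of that clustering, was its leading gene by fold, followed by Sult1a1, Smtnl1, Cpne8 and Procr. In HSC-like cells of the libraries, Procr, the EPCR receptor, had a ratio of 1.01 (0.714 to 1.45), Mllt3, a regulator of HSC maintenance, 0.885 (0.660 to 1.19) and Ifitm1 0.939 (0.858 to 1.03). Hlf had 0.715 (0.508 to 1.01), Mecom 0.785 (0.512 to 1.21) and Sult1a1 0.596 (0.363 to 0.973), while the 12 markers summed had 0.870 (0.813 to 0.932), an interval below 1, and S phase genes 1.14 (1.02 to 1.26). In these cells Meg3 was at 199 CPM (154 to 253) in Id2+/+, found in 20 of 56 cells, and at 27.2 CPM (14.5 to 46.5) in Id2Δ/Δ, found in 5 of 58 cells. The Meg3 ratio was 0.137 (0.0692 to 0.25). Ndn had 0.854 (0.525 to 1.40), Impact 0.626 (0.299 to 1.30) and Grb10 0.551 (0.280 to 1.07), intervals that all hold 1, and Cdkn1c had 0.597 (0.380 to 0.936) here but 1.46 under the first clustering, so no direction is read for it. In the cells left unnamed by the second clustering, 147 Id2+/+ and 244 Id2Δ/Δ cells, Ndn was at 57.4 CPM (44.1 to 73.4) and 27.9 CPM (21.5 to 35.5) and Impact at 34.6 CPM (24.5 to 47.5) and 17.1 CPM (12.2 to 23.3), intervals that did not overlap between the libraries. The share of all genes without overlap in these unnamed cells was not computed, so nothing is read from this. Under the first clustering the Meg3 ratio in HSC-like cells was 0.423 (0.217 to 0.760), in classes held mostly by different clusters and with the HSC marker ratio of 1.44 given above.

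A grouping that used no cluster gave the same place for Meg3. Thinned cells were split by a UMI of Hlf, a transcription factor of HSCs, and of Cd34, which is low on the most primitive mouse HSCs. In Hlf+ Cd34- cells Meg3 was at 95.3 CPM (59.0 to 146) in Id2+/+, in 6 of 38 cells, and 21.3 CPM (9.72 to 40.4) in Id2Δ/Δ, in 3 of 73 cells. It was at 17.6 CPM (5.71 to 41.1) and 4.11 CPM (0.497 to 14.8) in Hlf+ Cd34+ cells, at 3.75 and 1.41 CPM in Hlf- Cd34+ cells, and at 21.9 CPM (9.45 to 43.1) and 0 UMIs in Hlf- Cd34- cells. The Hlf+ Cd34- level lay highest in each library, above the interval of the next group in Id2+/+, while in Id2Δ/Δ its interval overlapped that of Hlf+ Cd34+ cells. Ndn was highest in Hlf+ cells, 98.5 CPM with Cd34 and 63.5 CPM without in Id2+/+, and 34.9 and 56.7 CPM in Id2Δ/Δ, with intervals that overlapped those of Hlf- cells, and Grb10 lay between 27.4 and 54.4 CPM in all 4 groups of both libraries.

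The cells that carried Meg3 were compared with those that did not, within each library at matched depth. There were 15 Id2+/+ cells with and 181 without Meg3, and 6 and 410 Id2Δ/Δ cells. HSC markers summed to 4621 CPM with and 2004 CPM without Meg3 in Id2+/+, a ratio of 2.31 (2.07 to 2.57), and the ratio was 2.49 (2.15 to 2.89) in Id2Δ/Δ. Ifitm1, which is in both this list and the next, gave 58.5% of these UMIs in Id2+/+ and 69.1% in Id2Δ/Δ cells with Meg3, and 43.9% and 52.3% in those without. Without Ifitm1 the ratio of the other 11 HSC markers was 1.71 (1.44 to 2.01) and 1.61 (1.22 to 2.09). A list of 35 stem cell quiescence genes, which shares 8 genes with the HSC markers, had 1.90 (1.75 to 2.06) and 2.10 (1.87 to 2.35), or 1.57 (1.42 to 1.74) and 1.67 (1.44 to 1.94) without Ifitm1. Markers of activated HSCs, such as Cd34, Sox4 and Myc, had 0.592 (0.446 to 0.773) and 0.501 (0.296 to 0.793), and platelet-biased markers 0.283 (0.190 to 0.405) and 0.127 (0.0466 to 0.277). Pf4 alone gave 845 of the 1281 platelet-biased UMIs in Id2+/+ cells without Meg3 and 2170 of 3224 in Id2Δ/Δ ones. It was found in 46.7% of Id2+/+ cells with Meg3 and 48.1% of those without. The platelet-biased sums were not redone without Pf4. In both libraries cells with Meg3 thus had higher HSC and quiescence levels and lower activated and platelet-biased levels than cells without it.

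Cell cycle genes were lower in Id2+/+ cells with Meg3, at 0.685 (0.591 to 0.789) for S phase and 0.607 (0.507 to 0.722) for G2/M. In Id2Δ/Δ cells G2/M had 0.714 (0.555 to 0.905), and the S phase ratio of 0.893 had an interval of 0.735 to 1.07 that holds 1. Dissociation stress genes had a median log2 library ratio of -1.30, with 12 of 16 lower by 1.5 fold in Id2Δ/Δ. Their summed level had intervals that hold 1 for cells with over without Meg3, at 0.942 (0.863 to 1.03) and 0.944 (0.813 to 1.09). Hspa8 and Hsp90ab1, with library ratios of 1.02 and 1.08, gave 196 and 186 of its 559 UMIs in Id2+/+ cells with Meg3. The sum thus says little about the other stress genes. In Id2+/+, 3 of 14 were higher with Meg3, against 21.5% of all genes, led by Ier3 at 4.02 (1.91 to 7.91), and 1 was lower. Fos had 0.913 (0.532 to 1.47) in Id2+/+ and 4.51 (1.61 to 10.2) in Id2Δ/Δ. Neutrophil markers had 1.32 (1.09 to 1.58) and 1.54 (1.08 to 2.14) in cells with over without Meg3, and stromal and endothelial markers 1.29 (0.624 to 2.40) and 3.08 (1.11 to 6.89). Lymphoid markers had 0.362 (0.154 to 0.723) and 0.346 (0.0418 to 1.26), and erythroid markers 0.863 (0.752 to 0.986) and 0.978 (0.785 to 1.21). The part of stress genes and of these lists in the differences of Meg3 was not tested. Within HSC-like cells alone the HSC marker ratio was 1.79 in Id2+/+ and 1.42 in Id2Δ/Δ, while the G2/M ratio was 0.846 and 1.17, and the S phase ratio 0.894 and 1.52, so that for Id2Δ/Δ, with 4 cells with Meg3, the direction of both cell cycle lists turned.

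Gene by gene in Id2+/+, 21.5% of the 6485 genes tested were higher by 1.5 fold and 18.8% lower in the 15 cells with Meg3. Of the HSC markers 7 of 10 were higher and 0 lower, led by Ifitm1 at 3.07 (2.65 to 3.55) and Ly6a, which encodes Sca-1, at 2.36 (1.31 to 3.996), with Pml at 1.24 and Txnip at 1.42 the lowest. Of the quiescence genes 17 of 26 were higher and 2 lower. Ctnnal1 had 4.22 (1.51 to 10.4), whereas Cdkn1b, which encodes the cell cycle inhibitor p27, had 0 UMIs in cells with Meg3 against 25 in the others, with an upper limit of 1.92. Of the G2/M genes 17 of 29 were lower and 2 higher, and of the S phase genes 12 of 35 were lower and 1 higher. Pf4, platelet factor 4, had 0.114 (0.0492 to 0.226) in Id2+/+ and 0 UMIs in the 6 Id2Δ/Δ cells with Meg3, while Vwf, a further platelet-biased marker, had 2.87 (0.846 to 7.83) in Id2+/+.

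Ndn, Impact and Cdkn1c were found in a larger share of the cells with Meg3 in Id2+/+ but not of the 6 such cells in Id2Δ/Δ, and this difference between the libraries was not tested. In Id2+/+, Ndn was found in 53.3% of cells with Meg3 and 22.7% of those without, Impact in 33.3% and 11.6%, and Cdkn1c in 46.7% and 15.5%. Among the 6 Id2Δ/Δ cells with Meg3 these shares were 16.7%, 0% and 16.7%, against 18.8%, 8.54% and 19.5%. Grb10 was found in 6.67% against 19.3% in Id2+/+ and 33.3% against 19.8% in Id2Δ/Δ, opposite orders that rest on 1 and 2 cells. Thinned to 3000 UMIs, which keeps 21 Id2+/+ cells with Meg3, Cdkn1c was still found in 57.1% against 10.8%, but Ndn in 19.05% against 14.9% and Impact in 9.52% against 11.2%. Without thinning, Cdkn1c was found in 51.7% against 24.5%, Ndn in 48.3% against 26.6% and Impact in 24.1% against 21.5%. Cdkn1c and Ndn were thus found in a larger share of the Id2+/+ cells with Meg3 in all 3 settings, while the order for Impact turned at 3000 UMIs. For Ndn the intervals of the shares with and without Meg3 overlapped in each setting (5.45 to 41.9 against 10.7 to 20.1 at 3000 UMIs), and for Cdkn1c they overlapped at 5800 UMIs (21.3 to 73.4 against 10.5 to 21.6) but not in the other settings. These settings differ in the cells kept as well as in depth, with 196 Id2+/+ cells at 5800 UMIs and 262 in the others. Over all 8 genes, 51.5% of thinned Id2+/+ and 58.7% of Id2Δ/Δ cells held none, 14.8% and 7.69% held 2, and 2.04% and 0.481% held 3.

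Cells with Ndn and cells with Impact were compared in the same way, with more cells. HSC markers were at 1.49 (1.37 to 1.62) in Id2+/+ and 1.42 (1.34 to 1.52) in Id2Δ/Δ for cells with over without Ndn, and at 1.40 (1.26 to 1.56) and 1.42 (1.31 to 1.55) for Impact. Without Ifitm1 these were 1.24 and 1.31 for Ndn and 1.28 and 1.395 for Impact, with intervals above 1. S phase genes were at 0.664 and 0.746 for Ndn and 0.861 and 0.664 for Impact, and G2/M genes at 0.736 and 0.7999 for Ndn and 0.665 and 0.722 for Impact, with intervals below 1 throughout. Platelet-biased markers were at 0.216 and 0.510 for Ndn. For cells with over without Grb10, HSC markers were at 1.204 (1.09 to 1.32) and 1.12 (1.05 to 1.19), of which the latter was 1.09 (0.992 to 1.203) without Ifitm1, activated markers at 1.002 and 1.04, and S phase at 0.794 (0.725 to 0.868) in Id2+/+ but 1.10 (1.04 to 1.15) in Id2Δ/Δ. G2/M genes were at 0.827 (0.746 to 0.916) and 0.922 (0.866 to 0.981), and platelet-biased markers at 0.936 (0.808 to 1.08) and 0.557 (0.5004 to 0.620) for Grb10, against 0.363 and 0.811 for Impact.

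**Figure D5:**
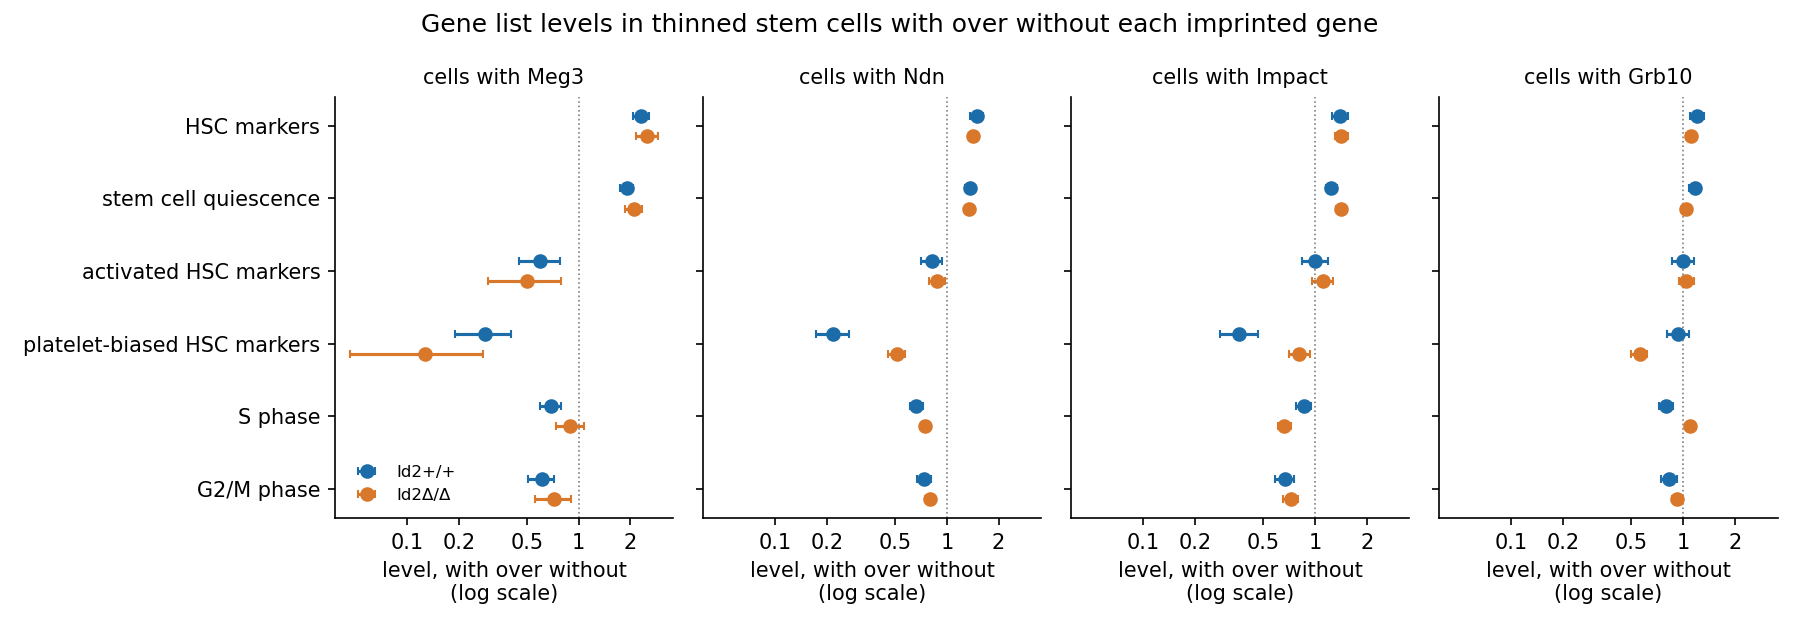
Summed level of 6 gene lists in thinned stem cells with over without a UMI of Meg3, Ndn, Impact or Grb10 (log x axis), in Id2+/+ (blue) and Id2Δ/Δ (orange), with exact conditional 95% intervals. HSC marker ratios are 2.31 and 2.49 for Meg3, 1.49 and 1.42 for Ndn, 1.40 and 1.42 for Impact, and 1.204 and 1.12 for Grb10.

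The genes most like Meg3 were ranked by Pearson r over thinned cells, taking the smaller r of the 196 Id2+/+ and 416 Id2Δ/Δ cells for each of 7726 genes. The values are a description of sparse counts, in which the points share library and depth and few cells hold Meg3. The highest were Ifitm1 (0.37 and 0.18), Mllt3 (0.17 and 0.21), Sema4b, Zfp148, Crebrf, Slfn2, Gm6525 and Tmem173, and 99% of genes had a smaller r under 0.0913. The lowest were Ctla2a (-0.26 and -0.16), Atp5l, Ywhah and Cmtm7. Ifitm1, an interferon-induced membrane protein, was found in all 15 and all 6 cells with Meg3 and in 91.2% and 88.5% of cells without, and Mllt3 in 66.7% of them in each library against 33.1% and 38.05% of cells without.

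Both pools held cells of both sexes, as cells with Xist UMIs and cells with Y-linked UMIs were found in each. Meg3 was at 29.2 CPM in 84 Id2+/+ and 2.64 CPM in 231 Id2Δ/Δ cells with Xist and no Y-linked UMI, and at 48.5 CPM in 93 Id2+/+ and 6.04 CPM in 90 Id2Δ/Δ cells with Y-linked UMIs and no Xist. The difference between the libraries thus had the same direction in both sets of cells, with ratios of 0.0906 and 0.125.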

How the data were processed

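The authors deposited raw UMI counts per gene and barcode, 1 matrix per library with every barcode listed and no call of cells; Cell Ranger 2.2.0 and mm10 are named in the submitters' processing notes. The 9 genes and all gene lists were chosen with earlier results of these data known. A barcode was called a cell at 10% of the 99th percentile UMI count of the 1000 deepest barcodes, with mitochondrial UMIs under 10% (333 Id2+/+ and 625 Id2Δ/Δ cells). Cells were clustered with scanpy 1.11.5 and Leiden (2000 variable genes, 20 components, 15 neighbours, resolution 1). Clusters with at least 4 markers of another type past a log2 fold of 1, and a mean log2 fold of HSC markers below 0, were removed. The rest were clustered again at resolution 0.8 without imprinted genes, and named from at least 3 markers past a log2 fold of 0.5.

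Summed counts, scaled to CPM, carry exact Poisson intervals. Ratios have exact conditional intervals and shares Clopper-Pearson intervals. A gene with at least 20 UMIs was called at 1.5 fold, with 0.5 added to each count for calls and medians. A limit for 0 is 3 counts. The ratio interval, the calls and the thinning were tested on simulated data. Scrublet, as an alternative, marked 2 and 1 cells. TMM factors came from edgeR 4.0.16. Total depth was 8612217 and 17140713 UMIs. The labels give 383 and 686 cells analyzed. All 9 genes are named. Other imprinted genes are named as the 6 highest and 6 lowest by ratio, with Cdkn1c, Dlk1, Igf2, Peg3, Mest and Gnas, and list genes as the 2 highest or 2 lowest. Genes like Meg3 had a UMI in at least 5% of thinned cells of each library, with mitochondrial, ribosomal protein, Xist, Tsix and Y-linked genes left out. Insr, Pf4 and other genes named for their role outside these rules were chosen after their values were seen.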

Additional observations from a re-analysis of the deposited data

Results flagged for a closer look

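Igf2r was detected outside the stem cells above its level within them, at 10.0 CPM in 44 Id2+/+ and 6.38 CPM in 169 Id2Δ/Δ erythroid-like cells, against 4.69 and 2.13 CPM in stem cells. It was also above the stem cell level in empty droplets, at 6.02 CPM in Id2+/+ and 4.42 CPM in Id2Δ/Δ. H19 had 5 UMIs in the Id2+/+ empty droplets, 1.25 CPM, against 1 UMI, 0.469 CPM, in the stem cells of that library. These values stand out because they come from barcodes outside the stem cells and lie above the stem cell level of the same library. For H19 and Igf2r in Id2+/+ they are within counting error of it, as the stem cell intervals are 0.0119 to 2.61 CPM for H19 and 2.25 to 8.62 CPM for Igf2r, the latter overlapping the erythroid-like interval of 5.47 to 16.8 CPM. In Id2Δ/Δ the stem cell interval of Igf2r, 1.02 to 3.92 CPM, lies below both values.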

How the results depend on the processing

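Of 143 recomputed values for 20 results, 100 stayed within the counting interval of the reported value (for the count of genes, within 1.5 times) and the others left it. Of 109 recomputed ratios, 6 passed to the other side of 1, namely Ndn, Impact, and S phase and G2/M in Id2Δ/Δ, all in HSC-like cells only. The Meg3 ratio stayed below 1 under all 13 alternatives, from 0.0511 to 0.423, and the Grb10 ratio from 0.641 to 0.913. In HSC-like cells only, the ratio of Meg3 was 0.423, those of Ndn and Impact turned to 1.09 and 1.01, and 1 rather than 4 genes was lower by 1.5 fold. With other cell types kept in, the Ndn ratio was 0.461. In cells with Y-linked UMIs and no Xist, the Meg3 ratio was 0.125 and the Impact ratio 0.294. With each gene scaled within its library, 69.8% of the Id2+/+ Meg3 UMIs were in HSC-like cells. TMM scaling gave 1040 genes lower and 562 higher by 1.5 fold, against 1416 and 345.

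Counting cells with at least 2 Meg3 UMIs gave 3.57% of Id2+/+ and 0.481% of Id2Δ/Δ cells. For cells with over without Meg3, that limit gave 2.06 for quiescence genes, 2.61 for HSC markers and 0.487 for S phase in Id2+/+, and 2.86, 3.71 and 0.563 in Id2Δ/Δ, where 2 cells remained. Unthinned, Id2Δ/Δ gave 2.49 for quiescence and 3.14 for HSC markers; thinned to 3000 UMIs, with 3 cells, it gave 2.35, 3.29, 0.672 for S phase and 0.425 for G2/M. Within HSC-like cells, an alternative chosen after seeing the data, quiescence, HSC markers, S phase and G2/M gave 1.56, 1.79, 0.894 and 0.846 in Id2+/+ and 1.29, 1.42, 1.52 and 1.17 in Id2Δ/Δ; unthinned they gave 1.46, 1.64, 0.850 and 0.960, and 1.42, 1.56, 1.44 and 1.09. Without Ifitm1, also chosen after seeing the data, HSC markers gave 1.71 and quiescence genes 1.57 in Id2+/+, and 1.61 and 1.67 in Id2Δ/Δ. The causes of these shifts were not tested.

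No paired analysis was possible because only 1 library was made per genotype. Depth limits Mirg and Plagl1, for which 0 UMIs allow up to 1.41 CPM in Id2+/+ and 0.640 CPM in Id2Δ/Δ. Genotype, mice pooled, capture and library cannot be told apart, and the cells of 1 pool are not replicates. Id2Δ/Δ values for cells with Meg3 rest on 7 cells unthinned and 6 thinned.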
